A study of Isodiametra pulchra with 2 samples.

Results

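The subject is a set of 100 transcript features that stood out by a higher level in cells than in empty droplets. They come from single-cell RNA sequencing of *Isodiametra pulchra*, a small marine acoel worm. They are 100 of 5102 eligible features and of 23786 features in all. A feature was eligible when it had at least 50 UMIs in the cells of each library and was detected in 5 to 50% of the cells of library 2. UMIs are unique molecular identifiers, which count captured RNA molecules once each. For each library the UMIs of all cells were summed, as were those of all empty droplets, both sums were scaled to an equal total, giving CPM, and 1 CPM was added to each. Their quotient is called the retention value below. The features were ranked by the lower of their retention values in both libraries, and the 100 highest were taken. The contrast of cells with empty droplets therefore chose the features, and its values are given as a description only.

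The data come from 2 droplet libraries of hatchlings of the wild type strain, which form 1 group, so no treatment or genotype was compared. The animals were kept at 20 °C and fed diatoms, and cells were freed with 1 mg/ml collagenase for 1 h at 25 °C, per the labels. Polyadenylated RNA was captured from whole hatchlings with 10x Genomics 3′ kits. The labels name kit versions 2 and 3. The barcode lists of libraries 1 and 2 have the sizes of the version 2 and the version 3 list, with 737280 and 6794880 entries, so kit and library cannot be told apart. Nothing states that the libraries came from separate batches of animals. Tests with library as a block take out the overall difference between the libraries. Their p-values measure only how far these libraries disagree in the difference tested, which may be technical.

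Library 1 held 6581711 UMIs and library 2 held 34060611. The rule takes droplets with at least 166 UMIs in library 1 and at least 1027 in library 2 as cells, which gave 4483 and 3275 cells. Their median totals were 288 and 1520 UMIs. Empty droplets had totals of 48 to 72 in library 1 and 268 to 402 in library 2, and numbered 44395 and 35272. No cell barcode was shared between the libraries (0 shared). The cells of library 1 were about as shallow as the empty droplets of library 2, so levels of single features in library 1 rest on few molecules.

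In droplet sequencing most droplets receive no cell, yet they capture RNA that floats in the suspension after cells have broken. Empty droplets thus sample what cells lost, in general mostly cytoplasmic messages of easily broken cells. Which cells broke here, and what RNA they lost, was not tested. RNA that stays inside whole cells or nuclei is scarce there, and a droplet with such RNA is more likely to have held a cell or a nucleus. Acoels are soft-bodied animals with epidermal, muscle, nerve, gland and digestive cells and a pool of dividing stem cells called neoblasts. The deposited feature list gives transcriptome assembly identifiers without gene names, so no function is given to any feature here and clusters are called by number. Identifiers are written without their common prefix TRINITY. In DN32962_c6_g1, the first 2 fields name the assembly component and the last the gene within it.

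The retention values of the 100 features ran from 2.41 to 12.1 in library 1, with a median of 3.98, and from 2.40 to 34.1 in library 2, with a median of 6.0. The other 5002 eligible features had medians of 1.01 and 1.00. The median feature of the set had 69.9 CPM in cells and 18.8 CPM in empty droplets of library 1, and 70.4 and 10.9 CPM in library 2. The other eligible features had medians of 89.1 CPM in the cells of library 1 and 56.2 CPM in those of library 2. The set thus lay below them in library 1 and above them in library 2. Of the set, 60 features stayed under 100 CPM in the cells of both libraries. The value was at least 5 in both libraries for 41 features and at least 10 in either library for 13. It was higher in library 2 for 84 features, while the level in cells was higher in library 2 for 48. Cell levels lay within 2-fold between the libraries for 73 features. These counts were not taken for the other eligible features. The median ratio of cell levels, library 2 over library 1, was 0.930 for the set and 0.642 for the other eligible features.

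DN17741_c0_g1 ranked first, with 33.8 CPM in cells against 1.88 CPM in empty droplets of library 1, and 429 against 11.6 CPM in library 2. Its empty-droplet level in library 1 rests on 5 UMIs. DN32962_c6_g1 ranked next, with 265 against 21.1 CPM in library 1 and 92.3 against 6.35 CPM in library 2. These 2 features differ in reach. DN17741_c0_g1 was detected in 0.825% and 5.68% of cells, and DN32962_c6_g1 in 8.59% and 16.5%. DN29086_c2_g5 had retention values of 10.6 and 9.19 in libraries 1 and 2. DN27017_c0_g9 had values of 11.5 and 8.65. The next 6 in rank, DN31418_c6_g1, DN26320_c5_g6, DN30228_c1_g6, DN22269_c0_g2, DN25394_c0_g1 and DN25206_c2_g2, had lower values between 7.80 and 8.49.

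The 3 features with the highest mean level in cells were DN23480_c0_g1, DN32842_c5_g3 and DN29861_c2_g3. DN23480_c0_g1 had 248 CPM in the cells of library 1 and 2255 CPM in those of library 2, against 93.7 and 349 CPM in empty droplets. DN32842_c5_g3 had 958 and 306 CPM in cells, against 160 and 30.5 CPM in empty droplets. DN29861_c2_g3 had 761 and 78.6 CPM in cells, against 128 and 7.12 CPM in empty droplets. The first was thus far higher in library 2 and the other two were higher in library 1, in cells and in empty droplets alike. DN32842_c5_g3 was the most widely detected of the 3, in 26.2% and 38.6% of cells.

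The boundary of the set is not a gap. The last 3 features inside, DN32184_c0_g1, DN32913_c3_g1 and DN32799_c1_g2, had lower values of 2.42, 2.42 and 2.40. The first 3 outside, DN32142_c0_g1, DN24425_c1_g1 and DN27632_c0_g1, had 2.40, 2.36 and 2.35. In all, 145 eligible features (2.84%) had a lower value above 2. In the assembly, 34 of the 100 features (34%) were alone in their component, against 33.9% of the other eligible features. Only 4 features of the set shared a component with another one, as the pairs DN32754_c2_g2 with DN32754_c2_g4 and DN27466_c3_g1 with DN27466_c3_g3. Such pairs may be parts or copies of the same gene, so how reads were divided between them is uncertain.

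The share of all UMIs that came from the 100 features changed with the size of the droplet, and it did so below the cell threshold, in droplets that the rule did not use. In the lowest range tested (24 to 47 UMIs in library 1, 134 to 267 in library 2), the share was 0.230% (95% exact binomial interval 0.213 to 0.248%) and 0.210% (0.204 to 0.216%). In the empty droplets it was 0.252% and 0.212%. A series of 3 ranges of equal width on a log scale follows between the empty droplets and the cells. In the first, up to 95 UMIs in library 1 and 550 in library 2, the share was 0.287% and 0.313%. In the next, up to 126 and 751 UMIs, it was 0.470% and 0.679%. In the range just below the cell threshold, up to 165 and 1026 UMIs, it reached 0.809% (0.779 to 0.839%) and 1.11% (1.10 to 1.13%). In cells it was 1.13% and 1.23%. The rise did not go on into cells for every feature: 10 of the 100 had a higher CPM just below the threshold than in cells in library 1, and 67 did in library 2, where the median feature had 75.3 CPM just below the threshold and 70.4 CPM in cells. The intervals cover counting error only.

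**Figure D1:**
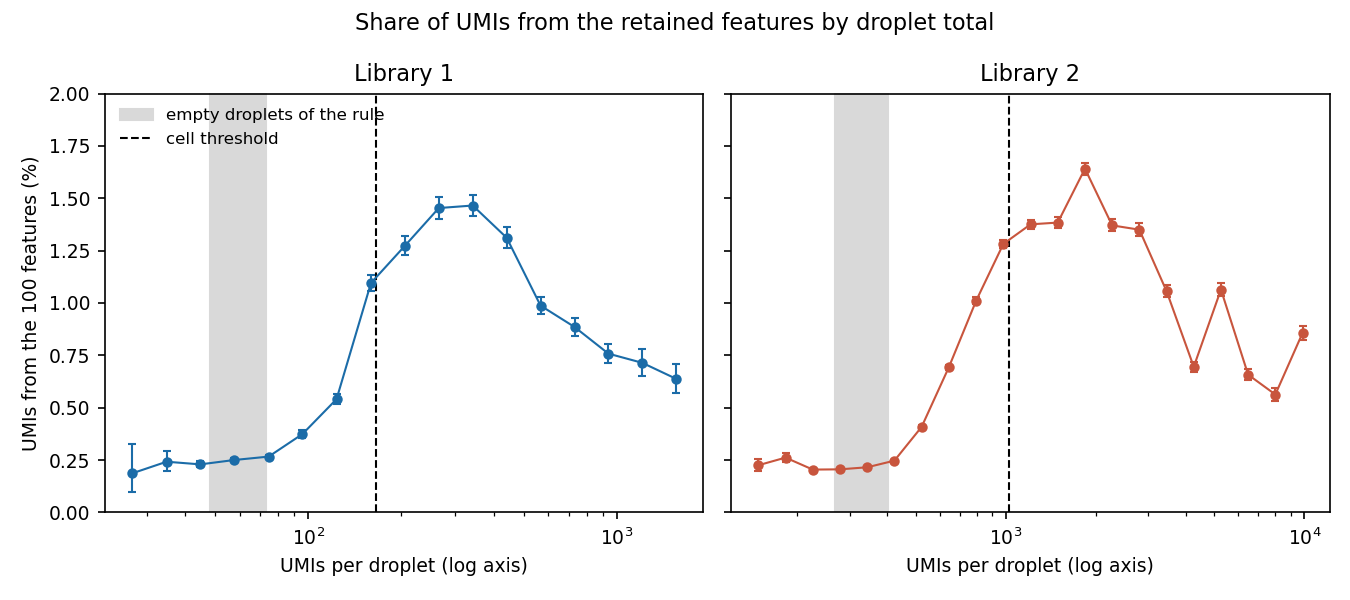
Percent of UMIs from the 100 features (vertical axis) in droplets grouped by their total UMIs (horizontal log axis) in each library, with 95% exact binomial intervals; grey marks the rule's empty droplets and the dashed line the cell threshold. The share lay between 0.186% and 0.267% from 24 to 84 UMIs in library 1, and between 0.205% and 0.262% from 134 to 381 UMIs in library 2. It rose ahead of the threshold, peaked at 1.47% in library 1 and 1.64% in library 2, and was lower in the largest droplets. Barcodes with fewer UMIs than these ranges are not shown and had higher shares, 0.309% and 0.373%.

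Within cells the share of the whole set was highest at intermediate totals. In library 1 it was 1.47% in droplets of 301 to 387 UMIs and 0.638% in those of 1373 to 1767 UMIs. In library 2 it was 1.64% at 1659 to 2045 UMIs and 0.563% at 7198 to 8877 UMIs. The fall between them was not steady, with 0.695% at 3838 to 4732 UMIs and 1.06% at 4733 to 5836, and the largest droplets, of 8878 to 10948 UMIs, had 0.856%. The number of molecules per cell still rose with the total. Cells were ranked by total and divided into 4 equal groups. The mean number of UMIs from the 92 spread features (defined below) was 2.22 per cell in the lowest group and 5.93 in the highest of library 1. In library 2 it was 11.4 and 27.3 per cell. Their share of UMIs was 1.20% and 0.793% in those groups of library 1, and 1.02% and 0.638% in library 2.

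At equal depth cells and the droplets just below the threshold also stood above empty droplets. When every droplet was thinned to 24 UMIs, 5.01% of droplets below the empty peak of library 1 and 4.81% of those of library 2 were expected to hold a UMI from the set. For empty droplets the values were 5.39% and 4.78%, so that in library 2 they lay just under those below the peak, while the share of UMIs had them just above. Just below the cell threshold they were 14.3% and 20.1%, and for cells they were 23.3% and 22.5%. Without thinning, 11.7% and 43.9% of empty droplets and 78.1% and 94.6% of cells held at least 1 such UMI. Median totals of empty droplets were 60 and 328 UMIs. The thinned levels of both libraries were close in cells, although their unthinned ones were not.

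The features were then tested 1 by 1 in droplets outside the rule, comparing the range just below the cell threshold with the range below the empty peak. All 100 features passed the low-count filter. Of these, 99 were higher just below the threshold and 0 were lower (edgeR's quasi-likelihood test with library as a block, adjusted p under 0.05). Among all 12835 features tested, 12.0% were higher and 4.35% were lower. Among the other eligible features, 6.50% were higher and 7.68% were lower. Droplets just below the threshold border on the cells, and those below the peak on the empty droplets, by which the features were chosen. An excess over other features was therefore likely in advance, so these counts are no independent support for the choice. The median log2 difference was 2.36 for the set, with a range of 0.97 to 4.24, against -0.15 for the other eligible features and 0.01 for all features tested. By CPM, 93 of the 100 features were higher in both libraries. With DESeq2 in place of edgeR 66 features passed (0.781% of all features), and without the library block none did (0 features of the set and 0.0% of all), with 63 higher at an unadjusted p under 0.05 (2.56% of all).

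The feature with the largest difference was DN31418_c6_g1. It had no UMI below the empty peak of library 1, where a count of 0 allows up to 10.5 CPM, and 3.96 CPM there in library 2. Just below the cell threshold it had 82.2 and 72.1 CPM. The log2 difference was 4.24 ± 0.39 (SE, n = 2 libraries, edgeR adjusted p = 5.5e-11). DN31408_c4_g2 went from 10.5 and 1.32 CPM to 64.6 and 47.4 CPM, on 3 UMIs below the peak in each library, with a log2 difference of 4.15 ± 0.48 (edgeR adjusted p = 2.1e-08). DN33277_c4_g2 went from 6.99 and 5.28 CPM to 41.1 and 93.9 CPM. Its log2 difference was 3.80 ± 0.36 (edgeR adjusted p = 1.1e-10). For all 3 features the droplets below the threshold were higher in each library.

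The smallest differences belonged to features from the edge of the set. DN32799_c1_g2 had 69.9 and 57.6 CPM below the empty peak and 52.9 and 161 CPM just below the threshold. It was thus lower in library 1 and higher in library 2, and its log2 difference of 0.97 ± 0.25 (edgeR adjusted p = 0.0059) rests on library 2. DN32184_c0_g1 (log2 difference 1.02 ± 0.25) and DN27393_c0_g2 (1.07 ± 0.23) were higher in both libraries. DN29353_c0_g3 was the 1 feature that did not pass, and it is named because of that value. It had 17.5 and 11.0 CPM below the peak and 11.7 and 34.6 CPM just below the threshold (log2 difference 1.14 ± 0.42, edgeR adjusted p = 0.052).

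**Figure D2:**
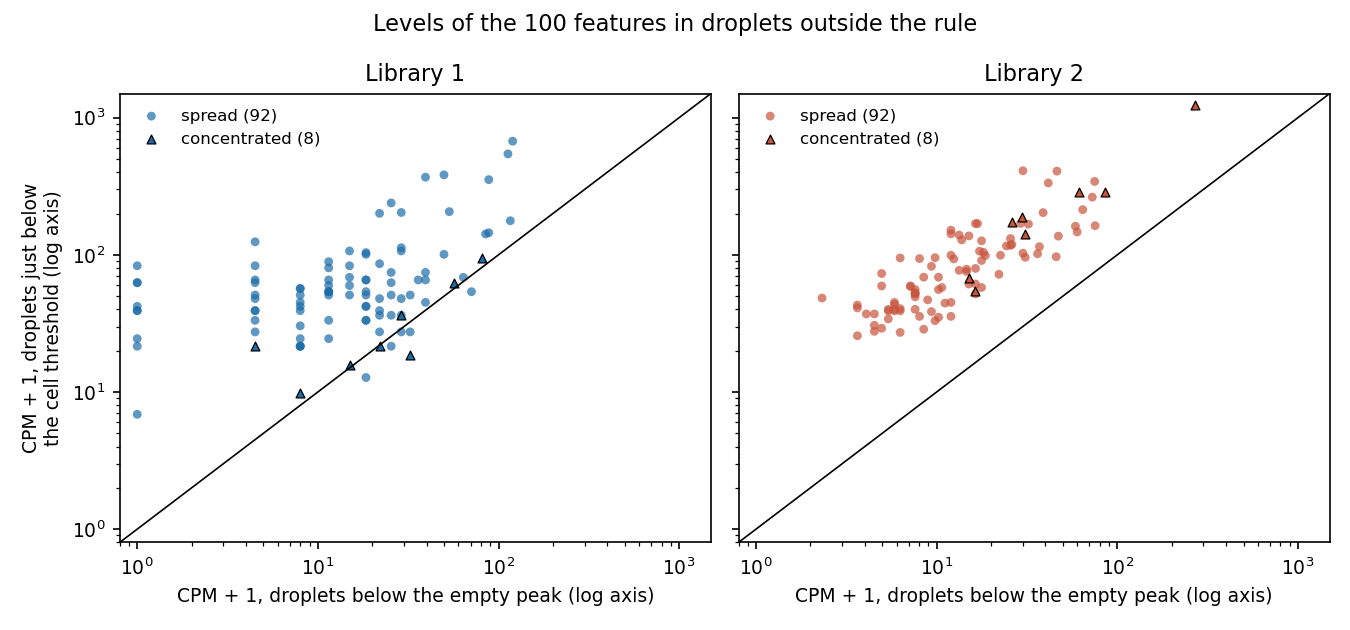
Level of each of the 100 features in droplets below the empty peak (horizontal log axis, CPM + 1) and in droplets just below the cell threshold (vertical log axis, CPM + 1), 1 panel per library; circles are spread features, triangles concentrated ones and the line marks equal levels. All 100 points of library 2 and 93 of library 1 lie above the line.

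The most abundant features followed the same course. DN32842_c5_g3 went from 119 and 40.5 CPM below the peak to 672 and 333 CPM just below the threshold (log2 difference 2.73 ± 0.22, edgeR adjusted p = 1.2e-12). DN29861_c2_g3 went from 112 and 11.4 CPM to 543 and 92.4 CPM (2.57 ± 0.24). DN23480_c0_g1 differed less evenly, with 80.3 and 94.0 CPM in library 1 and 267 and 1231 CPM in library 2 (1.63 ± 0.26). The step in which most features passed lay in the middle. From the first to the middle of the 3 ranges 55 features were higher, with a median log2 difference of 1.19, where 1.32% of all features were. The step before it and the step after it had 2 features each that were higher, with medians of 0.66 and 0.60, against 0.164% and 0.0312% of all features.

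Single droplets of the same size differed widely. In library 2, 63.7% of empty droplets had no UMI from the 92 spread features. Of the droplets in the middle range, 55.7% (2491 of 4475) had under 0.2% of their UMIs from them and 31.0% had at least 0.6%. Just below the threshold these shares of droplets were 31.0% and 53.7%, and in cells they were 20.7% (678 of 3275) and 61.4%. By share, droplets of 1 range thus ran from the level of empty droplets to that of most cells, and cells still included droplets with a low share. The cut of 0.2% depends on depth: in empty droplets it means no such UMI, while larger droplets under it can hold some. Droplets with no UMI from the spread features made up 33.6% of the middle range, 17.1% of the range just below the threshold and 6.50% of cells. The totals of library 1 are too low for such a division of single droplets, since 1 UMI there is already above 0.6% of a droplet under the threshold.

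**Figure D3:**
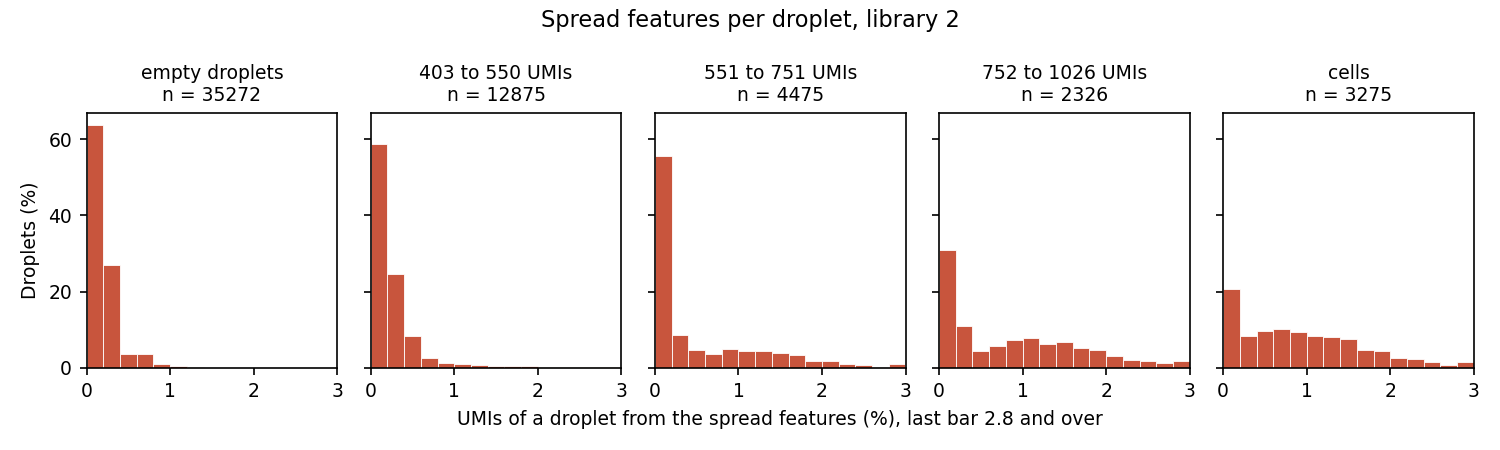
Percent of droplets of library 2 (vertical axis) by the percent of their UMIs that came from the 92 spread features (horizontal axis, bars of 0.2%), for empty droplets, 3 ranges below the cell threshold and cells. The lowest bar held 63.7% of empty droplets, 55.7% of the middle range and 20.7% of cells. In empty droplets this bar means no such UMI, while larger droplets in it can hold some.

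Cells without any UMI from the set numbered 982 (21.9%) in library 1 and 178 (5.44%) in library 2. Cells that had UMIs of some spread features tended to have those of others. The spread features were divided by odd and even rank into 2 lists of 46, and the share of a cell's UMIs was taken for each list. Across cells, Spearman's rho between the lists was 0.524 in library 1 (4322 cells) and 0.814 in library 2 (3189 cells). Both lists were read in the same droplets and at the same depth, and the cells of a library are not independent samples, so this is a description. The rule also chose all of these features for a high level in these cells over empty droplets, so a positive correlation was likely in advance. No lists of other features were compared. The correlation of the spread share with the cell's total UMIs was 0.0096 in library 1 and -0.158 in library 2.

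To see which cells held the features, cells were clustered on 2000 other features. The set and every feature from the same assembly components, 226 in all, were left out of the clustering. This gave 33 clusters, of which 25 had at least 20 cells in each library and were compared. Cluster 6, with 3 cells in library 1 and 419 in library 2, was among those left out. Over these 25 clusters the features were of 2 kinds. A feature was called concentrated when at least 25% of its CPM summed over clusters lay in the same cluster in both libraries, and 8 features (8%) met this. Of the other eligible features 6.46% did, and of those among them that were not used for clustering 2.68% did. The other 92 are the spread features. This division was made after the values were seen and has no test.

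The spread features were found in most clusters. Their median number of clusters with a UMI was 21 of 25 in library 1 and 25 in library 2, and 11 of the 92 had a UMI in all clusters of library 1 and 59 in all of library 2. The highest cluster held a median of 13.5% and 8.63% of their summed CPM. For the concentrated features the median number of clusters with a UMI was 11 in library 1 and 23 in library 2. In library 2 both kinds were thus found in most clusters. DN32962_c6_g1, the second in rank, had UMIs in all 25 clusters of both libraries. Its highest cluster held 11.3% of its summed CPM in library 1 (cluster 23) and 7.21% in library 2 (cluster 19). DN32842_c5_g3 had 8.95% (cluster 2) and 6.37% (cluster 14). DN30387_c0_g2, DN30772_c1_g1 and DN27495_c1_g2 each had over 25% in a single cluster of each library, but not in the same one, and they count as spread.

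For most of the set the highest cluster was not the same in both libraries. It was the same for 24 of the 100 features, a share close to the 23.0% among the other eligible features. Clusters with few UMIs can be highest on a few molecules. Cluster 23, with 6124 UMIs in library 1, was highest for 18 features there and for 0 in library 2. Cluster 21, with 34266 UMIs in library 2, was highest for 22 there and for 5 in library 1. A differing highest cluster therefore does not show that the libraries disagree. In a test over all clusters without a low-count filter, so that every member took part, 59 of 100 features differed among clusters (edgeR's quasi-likelihood F-test, adjusted p under 0.05). Among all features not used for clustering 30.1% did, and among the other eligible ones 37.8%. With the default low-count filter 85 features of the set took part and 63 differed, as did 51.3% of all features. Under some other settings with that filter the set was called less often than features at large. With 15 principal components 41 of 100 differed (47.0% of all features), and with 1000 variable features 29 of 78 did (50.3%). With UMIs held out from the clustering, which also leaves fewer UMIs to test, 17 of 43 did (62.1%). That the set differed among clusters more often than other features thus depends on the setting.

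Both libraries did point to the same cluster for some spread features. DN32105_c2_g1 was highest in cluster 18, with 496 CPM against 113 CPM in the other clusters of library 1 and 389 against 110 CPM in library 2. DN27435_c0_g1 was highest in cluster 19, with 374 against 55.6 CPM and 383 against 86.3 CPM. DN27017_c0_g9 was highest in cluster 5, with 119 against 39.6 CPM and 88.1 against 39.3 CPM. DN27341_c1_g3 was highest in cluster 14, with 140 against 45.9 CPM on 4 UMIs in library 1, and 71.6 against 29.3 CPM in library 2. DN30116_c0_g3, chosen after its values were seen, was highest in cluster 16, with 768 against 52.6 CPM and 626 against 77.9 CPM, a 14.6-fold and 8.04-fold difference. In library 1 this exceeded the differences of the concentrated features DN23521_c0_g1 and DN28759_c0_g1.

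**Figure D4:**
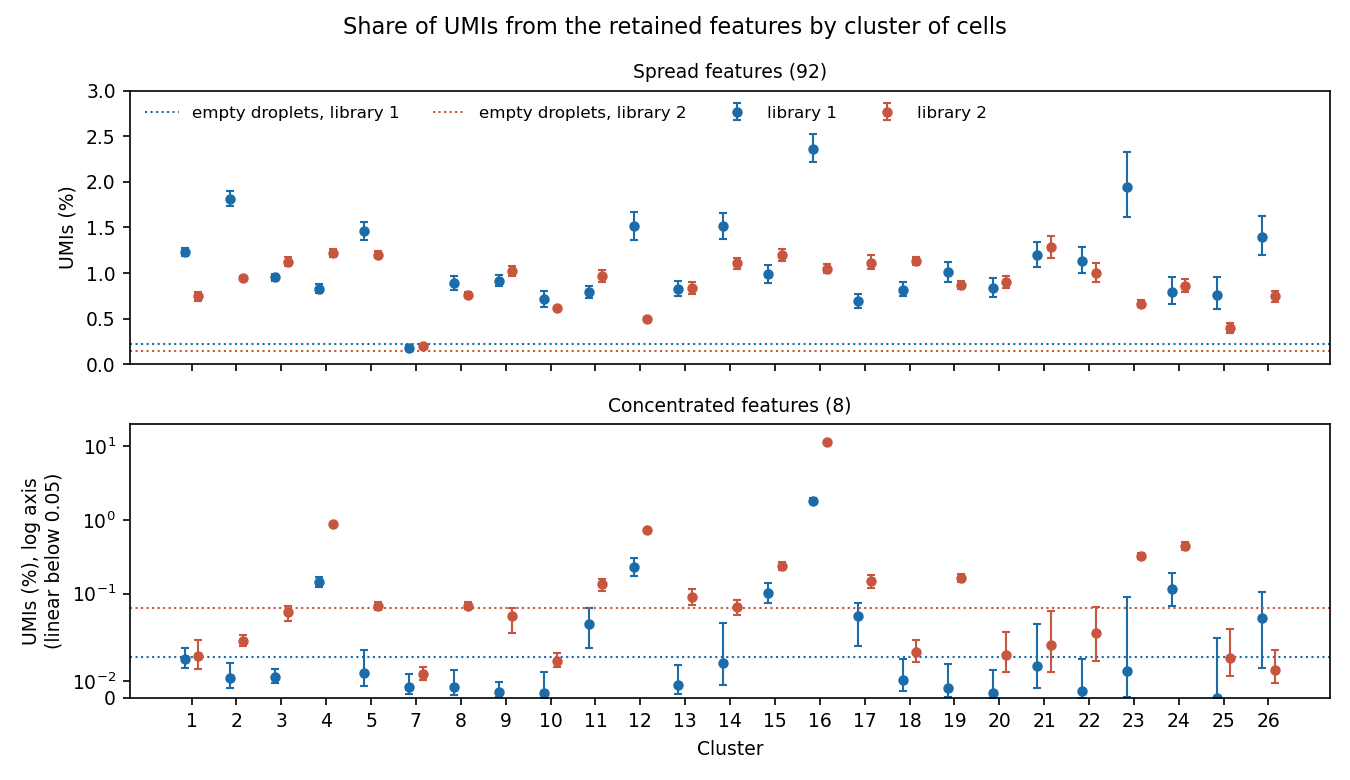
Percent of the UMIs of each cluster that came from the 92 spread features (upper panel) and from the 8 concentrated features (lower panel, log axis, linear below 0.05), by library with 95% exact binomial intervals; dotted lines give the empty droplets. Cluster 7 lay near the dotted lines in the upper panel, at 0.179% and 0.201%, and cluster 16 stood out in the lower panel, at 1.82% and 11.3%.

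Cluster 7 had the lowest share of the set in both libraries. Its 180 cells of library 1 and 183 of library 2 gave 0.186% (95% exact binomial interval 0.159 to 0.217%) and 0.216% (0.201 to 0.232%) of their UMIs to the 100 features. Over the 25 clusters the median share was 0.973% and 1.07%. The share of cluster 7 lay below that of empty droplets in library 1 and just above it in library 2. The median totals of its cells were 348 and 1419 UMIs. Those of all cells were 288 and 1520, so cluster 7 lay above them in library 1 and below them in library 2. DN27834_c0_g1 was the feature that led this cluster, by the lower of its folds over the other clusters in both libraries.

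By CPM, 99 of the 100 features were lower in cluster 7 than in the summed other clusters in library 1 and 100 were in library 2. Of the other eligible features, 71.3% and 66.0% were. The median ratio of cluster 7 to the others was 0.126 and 0.168 for the set, and 0.675 and 0.757 for the other eligible features. In the test across features, 71 of the 100 were lower by over 1 on the log2 scale and 0 were higher (edgeR's quasi-likelihood test with library as a block, adjusted p under 0.05), while 6.30% of all 8965 features tested and 7.44% of the other eligible ones were lower. The median log2 difference was -2.16 for the set and 0.00 for the other eligible features not used for clustering. This fit scales by edgeR's TMM method and the CPM ratios by total UMIs, so the fitted differences need not match those ratios. By the fit 49.8% of these other eligible features lay below 0, a smaller share than by CPM. Cluster 7 was taken up after its low share of these same features had been seen. The counts and p-values for it therefore describe that low share and are no separate support for it. Without the library block 0 members passed (0.00% of all), with 53 lower at an unadjusted p under 0.05 (4.71% of all), and without a low-count filter 28 did (0.583%). The form of the contrast was changed after its results had been seen. The first form, against the mean log level of the other clusters, gave 48 lower of 85 members tested (4.61% of all), and 36 of 100 without a filter (0.681%).

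The abundant features show the size of the difference. DN32842_c5_g3 had 135 CPM in cluster 7 and 996 CPM in the other clusters of library 1, and 63.5 against 321 CPM in library 2 (log2 difference -2.17 ± 0.40, edgeR adjusted p = 1.6e-06). DN29861_c2_g3 had 90.2 against 797 CPM and 11.5 against 86.6 CPM (-2.64 ± 0.48, edgeR adjusted p = 1.4e-06). DN26320_c5_g6 had no UMI in cluster 7 of library 1, where a count of 0 allows up to 33.8 CPM, against 142 CPM in the others, and 17.3 against 129 CPM in library 2 (-2.92 ± 0.60). DN27393_c0_g2 was an exception among the features named: it had 90.2 against 79.5 CPM and 164 against 187 CPM. In library 1 cluster 7 was the higher, and the feature did not pass the test (log2 difference 0.36 ± 0.41, edgeR adjusted p = 0.64). The fit is scaled by TMM, and for DN27393_c0_g2 it lies above the difference in CPM of either library. Levels of many members in cluster 7 of library 1 rest on few molecules, since 37 had no UMI there.

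The contrast of cluster 7 needs the cluster to be found alone. At a higher resolution the matching cluster shared 362 of its 363 cells, and 70 features were lower (6.05% of all features). At a lower resolution, with 1000 variable features and with held-out UMIs, the matching clusters were larger (525, 473 and 529 cells) and included cells of other clusters, and with 15 principal components only 187 of the 363 cells stayed together. There 15, 15, 19 and 11 features were lower, in that order, against 8.40%, 9.64%, 11.2% and 1.74% of all features, and the share of the set was 0.544 to 0.835% in library 1 and 0.623 to 0.673% in library 2. In library 2, 81.4% of the cells of cluster 7 had under 0.2% of their UMIs from the spread features, against 20.7% of all cells and 63.6% of those of cluster 25. Such cells were not confined to these clusters. Cluster 6, which was not compared, had 170 of them in library 2 (40.6% of its cells), more than the 149 of cluster 7. In cluster 1 they made up 40.4%. Leaving cluster 7 out changed the correlation between the 2 lists of spread features to 0.512 and 0.794.

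Cluster 25, with 30 and 33 cells, was also low in library 2, at 0.424%, the second lowest of the 25, and had 0.764% in library 1. In its contrast 95 of the 100 features had a log2 difference below 0, as had 71.9% of all features and 76.1% of the other eligible ones, and 2 passed the test (0.0352% of all features were lower). In cluster 2 the fit gave 9 features of the set as higher and 11 as lower, close to the 12.6% and 8.07% of all features. That count rests on the form of the contrast: the first form gave 36 higher and 0 lower in cluster 2 of 85 members tested, against 16.4% and 1.12% of all. For cluster 25 it gave 4 lower of 85 (0.730%).

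**Figure D5:**
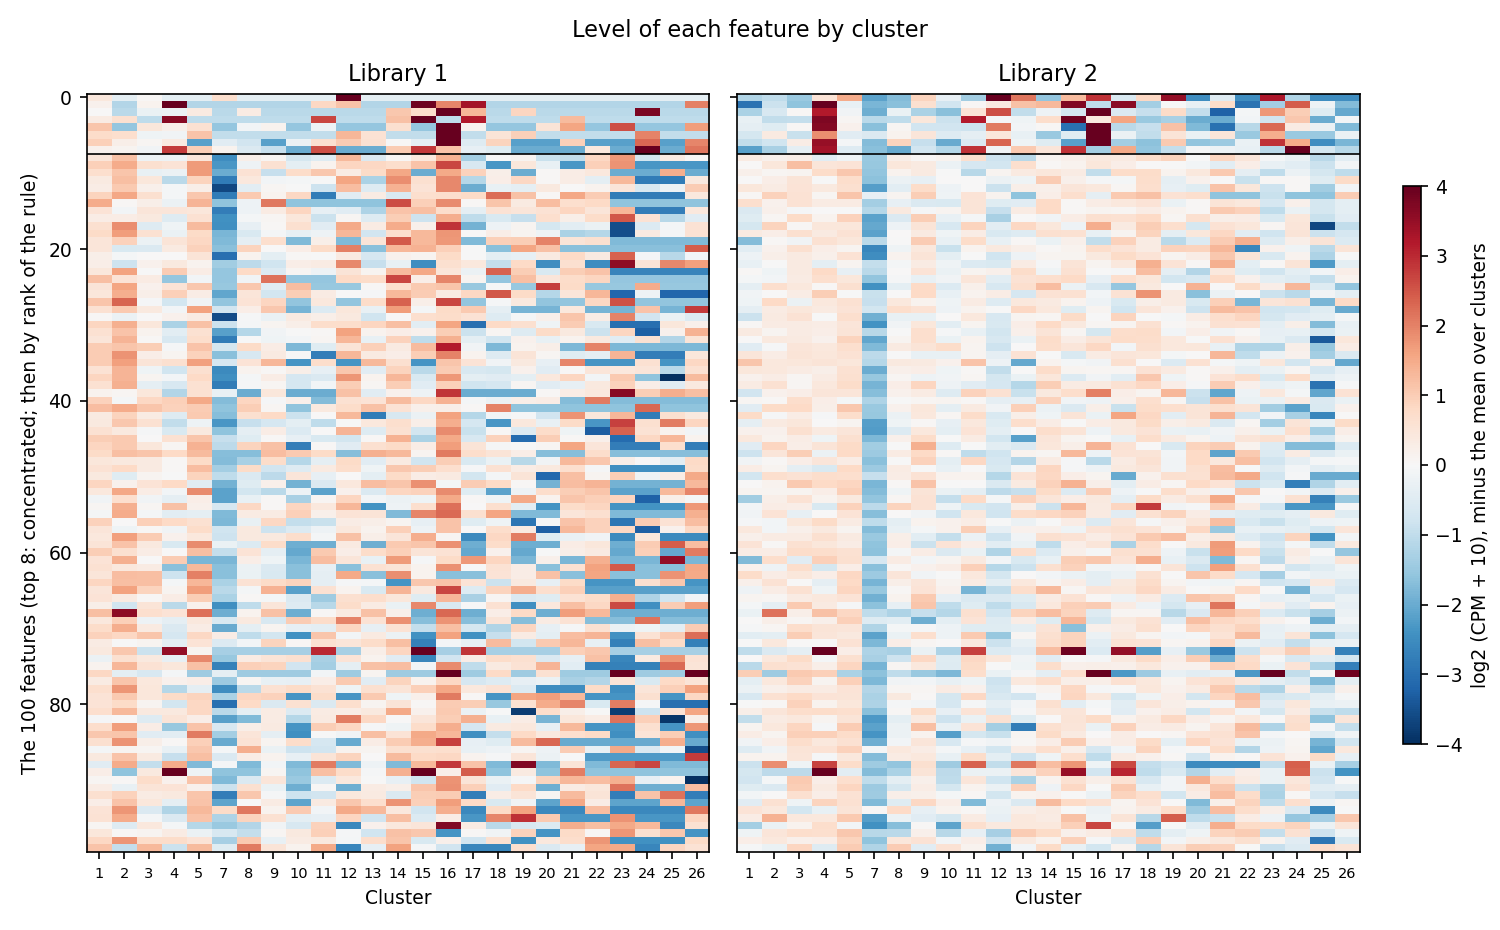
Level of each of the 100 features (rows; the 8 concentrated features above the line, then by rank) in each of the 25 clusters (columns) of both libraries, as log2 of CPM + 10 minus the row's mean over clusters. Cluster 7 forms a blue column in both libraries, and the concentrated rows hold many of the darkest red fields, among them those of cluster 16.

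Of the concentrated features, 4 were highest in cluster 16, which had 104 and 71 cells and was led by DN20573_c0_g1. DN23480_c0_g1 had 7907 CPM in this cluster and 43.0 CPM in the others in library 1, and 72529 against 475 CPM in library 2, a 184-fold and 153-fold difference. In the test across features it had a log2 difference of 7.39 ± 2.67 and did not pass (edgeR adjusted p = 0.12). DN27764_c0_g1 had 5578 against 24.4 CPM and 19499 against 130 CPM (log2 difference 7.53 ± 1.62, edgeR adjusted p = 0.00029). DN32015_c1_g2 had 3096 against 10.9 CPM and 18287 against 143 CPM (7.54 ± 1.56, edgeR adjusted p = 0.00013). DN24729_c0_g2 had 1510 against 11.5 CPM and 1989 against 21.5 CPM (6.78 ± 0.77, edgeR adjusted p = 2.2e-15). All 4 were thus at least 92.6-fold higher in cluster 16 in each library, and all 4 had a higher level there in library 2. They were called concentrated by these same levels, so the p-values are a description and no separate support.

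The set made up 4.19% of the UMIs of cluster 16 in library 1 and 12.3% in library 2. The concentrated features gave 1.82% and 11.3% of these UMIs and the spread ones 2.36% and 1.05%. The spread share of cluster 16 was the highest of the 25 in library 1, followed by cluster 23 with 1.94%, but in library 2 the highest was cluster 21 with 1.28%. In the test of cluster 16, 8 of the 100 features were higher by over 1 on the log2 scale and 0 were lower, against 2.69% of all features and 1.91% of the other eligible ones that were higher. At an unadjusted p under 0.05, 16 were higher and 4 lower, against 5.49% and 6.84% of all features. Without the library block 0 members passed (0.0766% of all), with 7 higher at an unadjusted p under 0.05 (3.12% of all). The first form of the contrast gave 22 higher of 85 members tested (8.15% of all), and 17 of 100 without a filter (3.74%).

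The other 4 concentrated features had different clusters. DN17741_c0_g1, the first in rank, had 2164 CPM in cluster 12 and 2.54 CPM in the other clusters of library 1, and 4937 against 87.4 CPM in library 2. DN26911_c0_g2 was highest in cluster 4, with 859 against 25.8 CPM and 2483 against 78.9 CPM. DN23521_c0_g1 was highest in cluster 15, with 395 against 35.3 CPM and 571 against 48.2 CPM. DN28759_c0_g1 was highest in cluster 24, with 623 against 61.9 CPM and 2947 against 90.4 CPM, on 9 UMIs in that cluster of library 1.

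The 2 kinds also differed in the droplets outside the rule. In library 1 the spread features gave 0.206% of UMIs below the empty peak and 0.781% just below the cell threshold, while the concentrated ones gave 0.0241% and 0.0273%. In library 2 the spread features gave 0.157% and 0.871%, and the concentrated ones 0.0525% and 0.242%. The rise in library 1 was thus carried by the spread features. In cells the spread features gave 1.05% in library 1 and 0.817% in library 2, the latter below their share just under the threshold, and the concentrated ones gave 0.0788% and 0.418%. The paired features of shared components were all spread. DN32754_c2_g2 had 51.3 CPM in the cells of library 1 and 97.2 CPM in those of library 2, and DN32754_c2_g4 had 31.5 and 61.8 CPM, with log2 differences of 2.20 ± 0.28 and 2.99 ± 0.38 in droplets outside the rule. DN27466_c3_g1 had 108 and 38.4 CPM and DN27466_c3_g3 had 30.9 and 28.1 CPM in cells, with log2 differences of 2.96 ± 0.38 and 2.77 ± 0.58.

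How alike cells and empty droplets were otherwise also varied by cluster. Spearman's rho between the profile of a cluster and that of the empty droplets of its library, over features other than the set, ran from 0.352 (cluster 23) to 0.845 (cluster 1) in library 1 and from 0.533 (cluster 21) to 0.778 (cluster 7) in library 2. Cluster 7 was thus the most like the empty droplets in library 2 and not in library 1. Clusters differ in their summed UMIs, so these values are a description. The part of free RNA in the low share of cluster 7 was not tested.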

How the data were processed

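The authors deposited a matrix of raw UMI counts per feature and barcode that pools both libraries. The file headers and the submitters' processing notes name Cell Ranger 3.0.2 as its source. All barcodes of the kits' lists (737280 and 6794880 entries) are included, so the deposited counts hold empty droplets. The other deposited lists give barcodes with a library suffix and feature identifiers, with no score or level, per the file headers. The suffix was matched to the run number in the sample titles. The reference assembly, mapping settings and any depth equalisation at pooling are not given in the sources used here. No column of another sample was present (0 columns).

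Counts were summed per library over droplet classes set by total UMIs, as given in the report, and tested with edgeR 4.0.16 (TMM scaling, default low-count filter, quasi-likelihood test, library as a block, Benjamini-Hochberg adjustment over all features tested, threshold 0.05). For clusters, cells with the highest doublet scores were removed at 0.8% per 1000 called (161 and 86 cells), because the automatic threshold marked 0% and 0.0305% and had not worked. Counts per cell were scaled to 10000, log transformed and reduced to 30 principal components of 2000 variable features, and cells were joined to 15 neighbours and grouped by the Leiden method at resolution 1.0 (scanpy 1.11.5). Each cluster was then compared with the sum of the other compared clusters of each library, with a log2 difference beyond 1 required. These contrasts were chosen after the data had been seen, so their counts and p-values are a description. A first form of the contrasts averaged log levels over the other clusters. It was replaced after its results had been seen, because clusters without a UMI of a feature left it without a usable test. Counts from both forms are given. Standard errors are the log2 difference divided by the root of F. Alternatives were DESeq2 1.42.0, other scaling, no filter, no block, single libraries, other droplet ranges and other clusterings.

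The features and groupings were chosen with earlier results of these data known. Features are named by rule: the 10 highest ranks, the 3 ranks on either side of the boundary, the 3 largest and 3 smallest differences outside the rule, 1 per leading cluster for 6 clusters, the 3 most abundant and those sharing a component. Other named features were picked after their values were seen, as were all concentrated features. Depth limits precision: intervals and limits of 0 (3 counts) cover counting error only.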

Additional observations from a re-analysis of the deposited data

Results flagged for a closer look

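Barcodes below all droplet classes compared in the report also held UMIs of the 100 features, although no comparison used them. In library 1, 178157 barcodes with at most 23 UMIs gave 0.309% of their UMIs to the set (95% exact binomial interval 0.289 to 0.330%). In library 2, 1412904 barcodes with at most 133 UMIs gave 0.373% (0.366 to 0.381%). Both shares are above those of the empty droplets of the same library, 0.252% and 0.212%. Cluster 32 had too few cells for the comparison of clusters, with 10 in library 1 and 17 in library 2, and gave 3.00% and 6.04% of its UMIs to the set. Only cluster 16 had a higher share than this in both libraries, at 4.19% and 12.3%.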

How the results depend on the processing

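Among the counts of the set higher just below the cell threshold, other scaling, no filter and a wider low range gave 98 or 99. One class for all droplets between gave 83, DESeq2 66 and no replicate block 0. By CPM in single libraries the count was 93 to 100. Among the further droplet values for named features, 152 stayed on their side of the threshold and 37 fell short of it, 27 of these without the replicate block; among their values for clusters 197 stayed, 39 fell short and 3 newly passed. Members that differed among clusters numbered 41 of 100 with 15 principal components (47.0% of all features), 29 of 78 with 1000 variable features (50.3%), 17 of 43 with held-out UMIs (62.1%) and 20 of 85 without the replicate block (30.7%), each a lower share than of all features, against 63 of 85 (51.3%). The same highest cluster was found for 13 features with held-out UMIs (19.0% of other eligible features), 21 at resolution 0.5 (25.0%), 21 with 15 components (25.6%), 18 with 1000 features (22.0%), 19 with doublets kept (22.3%), 24 with at least 50 cells (29.1%) and 23 at resolution 2.0 (21.5%). Lower in cluster 7 were 28 without a filter, 15 at resolution 0.5, 11 with 15 components, 15 with 1000 features, 19 with held-out UMIs, 0 without the replicate block and 48 (36 unfiltered) by the first form of the contrast, against 71. Higher in cluster 16 were 0 without the replicate block and 22 (17 unfiltered) by the first form, against 8. The libraries carry their own numbers and served as the block throughout. Of the set, 63 features stayed when at least 20 UMIs were required and 65 at 100 UMIs, and 78 to 88 when single libraries ranked the features. Leaving out the 10 features with the most UMIs lowered the share in cells to 0.836% and 0.686% and that just below the threshold to 0.613% and 0.732%, which in library 2 turned the order. Thinning to 48 UMIs gave 23.0% and 33.1% of droplets just below the threshold and 37.6% and 36.7% of cells. Tests of clusters without 1 library have no residual degrees of freedom and were not run. Scaling by library totals moved the median of all features outside the rule from 0.01 to 0.15 (log2), and that of the set from 2.36 to 2.50.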
